A study of Mus musculus with 16 samples.

Results

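Immediate early genes are switched on within minutes of a stimulus, before any new protein is made, and many of their products are transcription factors. Others close the loop: phosphatases that inactivate MAP kinases, proteins that mark short-lived mRNAs for decay, an inhibitor of NF-kappa B, and a kinase that restrains CREB. The 34 genes described here were taken from a list of names out of 22196 genes summed from the deposited transcripts. That list, and the lists of other genes used below, were chosen with earlier results of these data known. The shares set beside those of all genes are therefore not independent of that choice. Of the 34, 31 were among the 12506 genes with enough counts to be tested.

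RNA was sequenced from whole inguinal mammary gland of mice, described as mid-lactation, in 4 groups of 4 libraries. The groups were lactational high fat diet plus metformin (HFD metformin), that diet without the drug (HFD control), the diet labelled NCD with metformin (NCD metformin) and NCD without it (NCD control). Metformin is a glucose-lowering drug, and the study is titled as one on the effect of diet and drug on gene expression in the gland. All 16 libraries carry the age label postnatal day 16, which does not say whose age it is, and the labels expand neither NCD nor PN. No strain, dose or route is among the labels used here, and none says whether each library is its own animal. The p-values below therefore reflect the scatter of these 16 libraries alone, part of which may be technical. Libraries held 8649316 to 39156617 gene counts, with a median of 28944266; the shallowest were HFD control 4 and HFD metformin 1 (14508606). Markers of secretory luminal cells were present in every group, with summed levels from 243126 to 387304 CPM (counts scaled to a common library size). Skeletal muscle markers summed to 4527 CPM in NCD control 3, against 2.36 CPM in the lowest library of that group, and to 172 CPM in HFD metformin 1. In bulk tissue, fewer cells of a type and less RNA per cell cannot be told apart.

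In the classical scheme, growth factor, cytokine or stress signals reach pre-made factors such as SRF, CREB and NF-kappa B, which bind short motifs near the start of these genes. The Fos and Jun proteins pair to form AP-1, the EGR and NR4A proteins are a zinc-finger family and a nuclear receptor family, and the DUSP, ZFP36, SIK1 and I-kappa B alpha proteins then damp the signal. In mammary gland, AP-1 factors are known to be induced when milk removal stops and involution begins.

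The stretch before the start of a gene is where such motifs are usually sought, and promoter sequences of RefSeq on GRCm38.p6 were available for 26 of the 34 genes. Over the 250 bases before the start and on both strands, the cyclic AMP response element TGACGTCA was found in 2 of the 26 (7.69%; Dusp1 and Maff), against 1.77% of the 27025 genes in that table. Its first 5 letters, TGACG, which the longer motif contains, were found in 12 of 26 (46.2%), against 19.8% of all. The CArG box, bound by SRF, was found in 4 of 26 (15.4%; Egr2, Srf, Dusp5 and Zfp36), against 1.62% of all, and the kappa B motif in 7 of 26 (26.9%), against 8.23%. The AP-1 motif TGANTCA was found in 2 of 26 (7.69%), against 7.82%. These matches describe letters and not occupied sites. Egr2, Csrnp1 and Maff have 5, 4 and 3 promoters in that table, and how far this bears on the shares was not tested. The genes Ier2, Sik1, Myc, Dusp4, Egr1, Fosl1, Zfp36l2 and Egr3 were not matched. Shown here 5′ to 3′ are 4 members that were lower with metformin on NCD and, for comparison, Fos, which was not called. Each ends just before the RefSeq start or, for Dusp1 and Ier3, before the next annotated exon base. The Dusp1 stretch lies inside the annotated span of that gene, chr17:26505590-26562128. Capitals in the stretches mark TGACG on either strand, the full TGACGTCA in Dusp1, and kappa B matches. They lie at chr17:26508520-26508722 (minus strand, Dusp1), chr2:57124004-57124253 (minus, Nr4a2), chr17:35821463-35821683 (plus, Ier3), chr12:55492648-55492897 (minus, Nfkbia) and chr12:85473640-85473889 (plus, Fos).
Dusp1: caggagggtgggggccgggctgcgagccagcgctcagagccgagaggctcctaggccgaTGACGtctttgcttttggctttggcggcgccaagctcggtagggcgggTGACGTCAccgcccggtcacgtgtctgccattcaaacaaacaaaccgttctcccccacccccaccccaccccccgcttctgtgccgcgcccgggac
Nr4a2: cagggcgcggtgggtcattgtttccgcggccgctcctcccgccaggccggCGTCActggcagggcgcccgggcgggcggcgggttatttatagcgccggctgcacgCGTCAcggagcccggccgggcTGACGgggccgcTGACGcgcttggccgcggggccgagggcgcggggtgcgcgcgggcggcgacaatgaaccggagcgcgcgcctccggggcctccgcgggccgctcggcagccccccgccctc
Ier3: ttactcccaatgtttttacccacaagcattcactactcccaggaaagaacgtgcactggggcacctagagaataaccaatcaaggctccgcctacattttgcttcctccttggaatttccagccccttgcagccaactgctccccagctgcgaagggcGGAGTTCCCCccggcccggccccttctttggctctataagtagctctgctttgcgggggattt
Nfkbia: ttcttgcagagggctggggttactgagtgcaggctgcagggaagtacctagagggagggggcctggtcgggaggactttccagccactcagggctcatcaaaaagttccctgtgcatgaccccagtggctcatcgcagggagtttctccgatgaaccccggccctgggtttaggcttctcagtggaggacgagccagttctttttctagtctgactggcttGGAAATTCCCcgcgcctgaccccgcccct
Fos: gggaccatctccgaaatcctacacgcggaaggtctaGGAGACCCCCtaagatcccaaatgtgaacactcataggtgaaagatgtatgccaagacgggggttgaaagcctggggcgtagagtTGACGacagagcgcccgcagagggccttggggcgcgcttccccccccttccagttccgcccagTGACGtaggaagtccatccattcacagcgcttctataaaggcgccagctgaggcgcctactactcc
The Dusp1 stretch holds the full element 143 bases before the RefSeq start and a further TGACG at 191. That of Nr4a2 holds TGACG, on one or the other strand, at 200, 144, 123 and 111 bases and no full element. Ier3 and Nfkbia hold a kappa B match at 92 and 29 bases. Fos holds TGACG at 129 and 66 bases and a kappa B match at 214.

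Levels per coding length (TPM) differed widely between the members. Jund, a JUN family member of AP-1, was highest, with a median of 168 TPM over the 16 libraries (range 109 to 246 TPM). Fos followed with 81.1 TPM (8.53 to 216), then Dusp1 with 52.4 TPM (9.98 to 103), Zfp36 with 49.4 TPM, Jun with 43.1 TPM, Zfp36l2 with 42.9 TPM and Ier2 with 40.8 TPM. The ranges of each of these neighbours over the 16 libraries overlapped, which does not test their order within a library. Fos exceeded Jund in NCD control 4 (216 against 194 TPM) and lay below it in every other library. At the low end, Egr2 had a median of 0.463 TPM, Nr4a2 of 0.437 TPM, Dusp4 of 0.171 TPM and Egr3 of 0.157 TPM. The 3 members left untested were lowest: Dusp2, with 3 to 17 counts per library, Nr4a3, with 54 counts in all in 14 of 16 libraries, and Fosl1, with 6 counts in all in 4 of 16.

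Most members varied between libraries of the same group far more than other genes did. The pooled within-group SD of log2(CPM + 0.5) had a median of 0.642 over the 31 tested members, against 0.23 over all 12506 genes, and 30 of 31 members lay above the median of all genes. It was largest for Nr4a1 (1.27), Fosb (1.20), Fosl2 (1.09) and Fos (1.003). It was smallest for Srf (0.217), the factor that binds the CArG box, and for Nfkbia (0.248), Ier5 (0.255) and Jund (0.259).

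**Figure D1:**
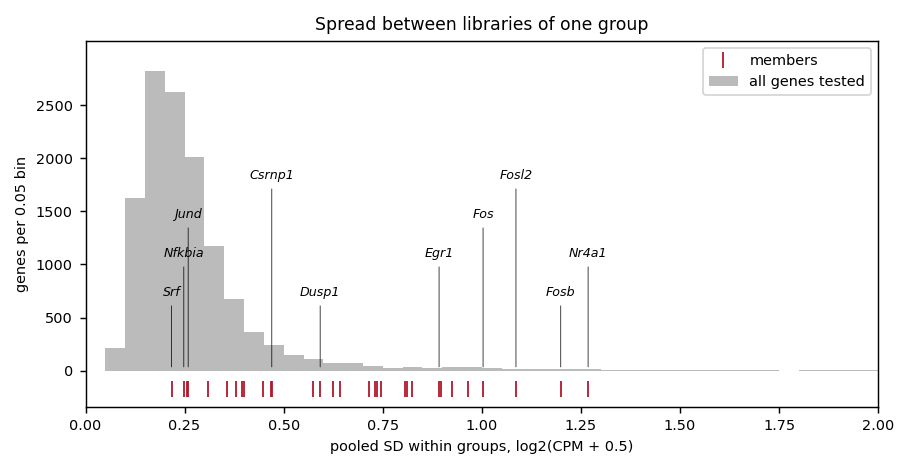
Pooled SD of log2(CPM + 0.5) within groups, on the horizontal axis, with the number of tested genes per bin as grey bars and the 31 members as red ticks; the axis ends at 2. Members spread over 0.217 (Srf) to 1.27 (Nr4a1), and the median of all genes is 0.23.

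Single libraries carried much of this spread, and they did so across families. NCD metformin 1 was the lowest of all 16 libraries for 17 of 31 members and the lowest of its group for 24. NCD metformin 3, of the same group, was the highest of that group for 27. HFD metformin 1 was the highest of all 16 for 7 members and HFD metformin 3 the lowest of its group for 25, while NCD control 4 was the highest of all 16 for 11. Fos, the founding AP-1 gene, had 23.03, 82.2, 427 and 219 CPM in the NCD metformin libraries, against 178, 242, 272 and 524 CPM in the NCD control libraries. It had 154, 243, 124 and 192 CPM in the HFD metformin libraries, against 272, 371, 278 and 206 CPM in the HFD control libraries. The groups overlapped on both diets, and within NCD metformin alone Fos ranged over 18.5-fold. Title numbers of the libraries run from 1 to 10 and from 14 to 26. Within NCD metformin, Fos had 23.03 and 82.2 CPM in titles 1 to 10, and 219 and 427 CPM in titles 14 to 26. Fosb, Jun, Junb, Egr1, Egr2, Nr4a1, Ier2 and Zfp36 split likewise, as did Jund, Maff, Dusp5 and Gadd45b. Of the members called lower below, Dusp1, Zfp36l2, Csrnp1 and Nr4a2 also split, while Fosl2, Ier3, Sik1 and Nfkbia overlapped, as did Rhob. How many of all genes split so was not counted. In both HFD groups the title ranges overlapped for Fos. HFD metformin 1 is the only HFD metformin library in titles 1 to 10. It lay above the others of its group for Dusp1 (152.5 CPM, against 47.3 to 109), Sik1, Zfp36l2, Nfkbia, Csrnp1, Fosl2 and Nr4a2. It did not for Ier3. HFD control 1, likewise the only one of its group in titles 1 to 10, did so for Zfp36l2 but not for Dusp1 or Sik1. NCD control 4 is the only NCD control library in titles 14 to 26.

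**Figure D2:**
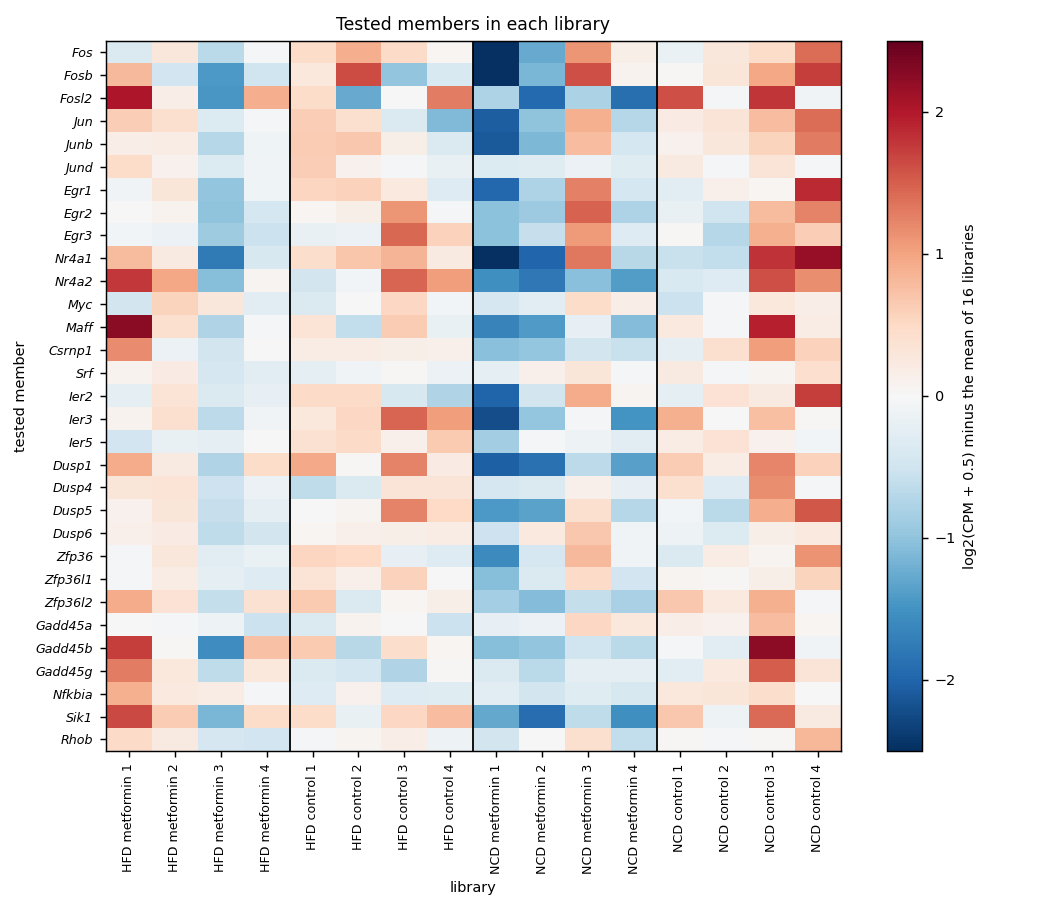
Log2(CPM + 0.5) of the 31 tested members (rows) in each of the 16 libraries (columns, groups separated by lines), minus the mean of the 16 libraries of that gene. NCD metformin 1 is blue for most rows and NCD metformin 3 red for Fos, Fosb, Jun, Junb, Egr1, Egr2, Egr3 and Nr4a1, while Dusp1, Sik1, Zfp36l2 and Nr4a2 are blue in all 4 NCD metformin libraries.

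With metformin on NCD, 8 of 31 members were lower and 0 were higher: the feedback genes Dusp1, Zfp36l2, Sik1, Nfkbia and Ier3 and the transcription factors Csrnp1, Nr4a2 and Fosl2. That is 25.8% of the members tested, against 6.03% of all genes called lower and 4.01% called higher (edgeR's quasi-likelihood test, Benjamini-Hochberg adjusted p under 0.05 over all 12506 genes). At an unadjusted p under 0.05 there were 16 members, all lower, and by DESeq2 and limma 0 members were higher (27.9% of all genes had an unadjusted p under 0.05). Scaled by library size only, all 8 were still called, and of all genes called 248 were higher and 742 lower, against 501 and 754 with TMM scaling. In all, 29 of 31 log2 fold changes were negative, against 50.3% of all genes, with a median of -0.76 against -0.00. Without NCD metformin 3 the median was -1.48, with 31 negative, and with a term for title numbers it was -1.10, with 30 negative. In titles 1 to 10 it was -1.61, and in titles 14 to 26 -0.71. For 11 members, all lower, the NCD metformin and NCD control libraries did not overlap (35.5%, against 9.82% of all genes lower and 8.73% higher): the 8 called and Jund, Maff and Gadd45b. Of the 8, Dusp1, Sik1, Zfp36l2 and Ier3 lie on chromosome 17, as does Srf. That chromosome holds 5 of the 34 members, the most of any, and the share of all called genes on it was not counted.

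**Figure D3:**
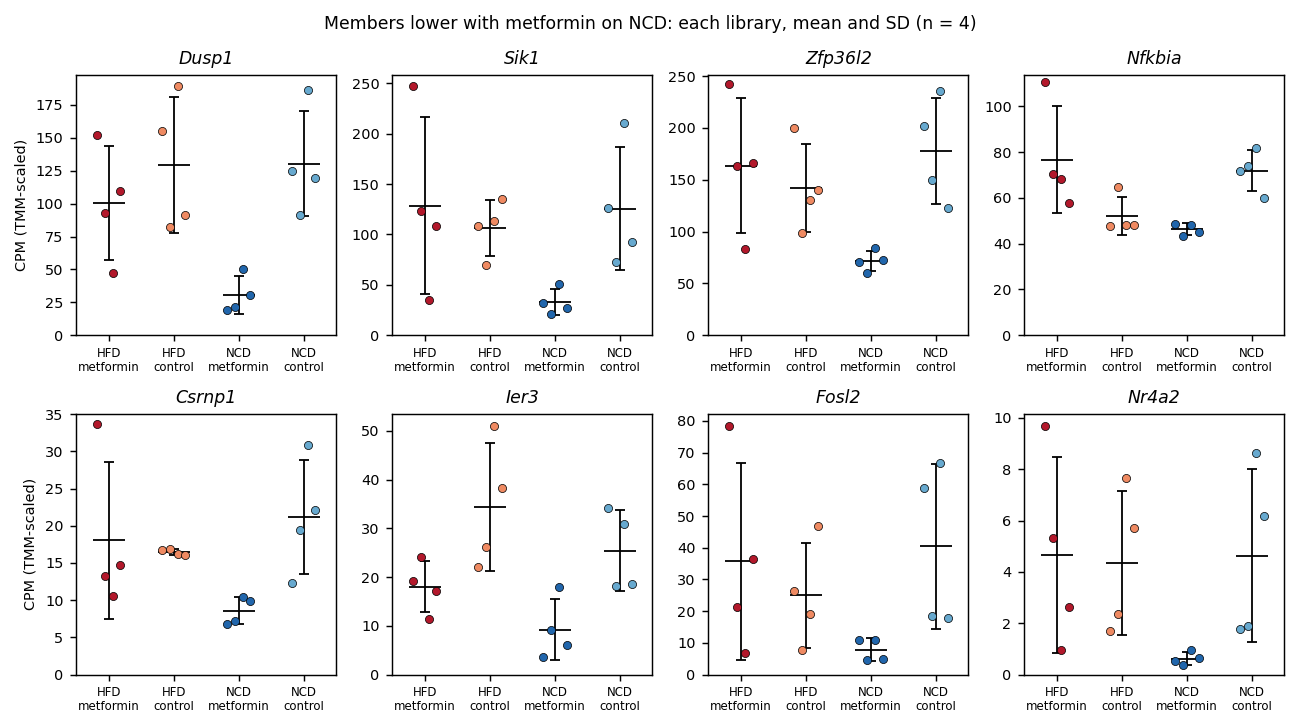
TMM-scaled CPM (vertical axes, from 0) of the 8 members called lower with metformin on NCD, in each library of the 4 groups (points), with group mean and SD (bars, n = 4). NCD metformin libraries lie below all NCD control libraries in each panel, while HFD metformin and HFD control libraries overlap in each.

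Among the MAP kinase phosphatases, Dusp1 encodes the nuclear enzyme that dephosphorylates p38, JNK and ERK. It had 18.9, 21.5, 50.4 and 30.7 CPM in the NCD metformin libraries, against 125, 91.3, 186 and 120 CPM in the NCD control libraries. All 4 NCD metformin libraries lay below every NCD control library. The log2 fold change was -2.10 ± 0.38 (SE; adjusted p = 0.00806, edgeR quasi-likelihood), or 4.29-fold lower. The transcript Dusp1-202 took a median of 87.7% of the Dusp1 counts in NCD metformin and 89.3% in NCD control. Dusp5, which acts on nuclear ERK, averaged 9.01 ± 6.20 CPM in NCD metformin and 22.04 ± 14.7 CPM in NCD control (SD, n = 4 each) and was not called (-1.29, adjusted p = 0.0906, edgeR). Dusp4 had -1.12 and Dusp6, the cytoplasmic ERK phosphatase, 0.16, neither called.

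Sik1 encodes a salt-inducible kinase that is itself a CREB target and phosphorylates the CRTC coactivators of CREB. It had 32.1, 20.8, 50.6 and 26.8 CPM in the NCD metformin libraries, against 127, 72.4, 211 and 92.4 CPM in the NCD control libraries, without overlap. The log2 fold change was -1.95 ± 0.46 (SE; adjusted p = 0.0204, edgeR quasi-likelihood). Nfkbia encodes I-kappa B alpha, which holds NF-kappa B in the cytoplasm and is induced by it. It had 48.8, 43.2, 48.3 and 45.3 CPM in the NCD metformin libraries, against 71.8, 73.9, 81.7 and 60.0 CPM in the NCD control libraries. These NCD metformin values lay within 1.13-fold of each other and below every NCD control value (-0.63 ± 0.17 SE, adjusted p = 0.0304, edgeR). Rhob, a small GTPase induced by stress, averaged 20.4 ± 6.82 CPM in NCD metformin and 26.7 ± 8.79 CPM in NCD control (SD, n = 4 each), with overlap.

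The ZFP36 proteins bind AU-rich elements and recruit the deadenylation machinery. Zfp36l2 had 70.4, 59.8, 83.7 and 72.2 CPM in the NCD metformin libraries, against 202, 149.5, 236 and 123 CPM in the NCD control libraries, without overlap (-1.31 ± 0.28 SE, adjusted p = 0.0149, edgeR quasi-likelihood). The founding member Zfp36, which encodes tristetraprolin, had 38.9, 87.7, 207 and 111 CPM in the NCD metformin libraries, against 91.2, 134, 124 and 259 CPM in the NCD control libraries. The Zfp36 groups overlapped (-0.45, adjusted p = 0.482, edgeR), and Zfp36l1 had -0.48. Of the IER genes, Ier3, which modulates cell survival under NF-kappa B and ERK signals, had 3.51, 9.13, 17.9 and 6.15 CPM in NCD metformin libraries, against 34.1, 18.1, 30.8 and 18.6 CPM in NCD control libraries. The highest NCD metformin library lay just under the lowest NCD control library (-1.47 ± 0.40 SE, adjusted p = 0.0331, edgeR). Ier5, an activator of heat shock factor, had 7.74, 14.1, 13.3 and 11.9 CPM in the NCD metformin libraries, against 16.5, 18.9, 15.7 and 13.9 CPM in the NCD control libraries (-0.47, adjusted p = 0.0833, edgeR). Ier2 had 11.4, 34.1, 89.4 and 49.3 CPM in the NCD metformin libraries, against 39.2, 60.5, 54.7 and 157 CPM in the NCD control libraries. Both of these pairs of groups overlapped.

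Among the transcription factors, Nr4a2, an orphan nuclear receptor, had the lowest fold change. It had 0.534, 0.368, 0.949 and 0.633 CPM in the NCD metformin libraries, against 1.79, 1.89, 8.63 and 6.18 CPM in the NCD control libraries, on 79 and 599 counts per group. The groups did not overlap (-2.89 ± 0.71 SE, adjusted p = 0.0235, edgeR quasi-likelihood). Nr4a1, the founding member, ranged over 1.79, 2.81, 32.1 and 7.60 CPM in the NCD metformin libraries and 8.43, 8.07, 45.7 and 58.6 CPM in the NCD control libraries, with overlap (-1.45, adjusted p = 0.245, edgeR). Fosl2, which encodes FRA2, had 10.98, 4.58, 10.8 and 4.79 CPM in the NCD metformin libraries, against 58.9, 18.4, 66.8 and 17.8 CPM in the NCD control libraries, without overlap (-2.39 ± 0.68 SE, adjusted p = 0.0367, edgeR). Csrnp1, a cysteine- and serine-rich nuclear protein gene, had 6.82, 7.22, 10.5 and 9.85 CPM in the NCD metformin libraries, against 12.3, 19.4, 30.8 and 22.1 CPM in the NCD control libraries. These groups were also separate (-1.30 ± 0.31 SE, adjusted p = 0.0211, edgeR).

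The classical early factors were not called. Jun had 18.4, 38.9, 146 and 47.9 CPM in the NCD metformin libraries, against 91.1, 97.6, 134 and 206 CPM in the NCD control libraries, and Egr1 had 19.4, 44.9, 186 and 56.4 CPM in the NCD metformin libraries, against 63.0, 84.4, 79.5 and 281 CPM in the NCD control libraries. In both genes NCD metformin 3 reached into the NCD control range, as it did for Fos, and the log2 fold changes were -1.07 for Jun, -0.73 for Egr1 and -0.70 for Fos (adjusted p 0.173, 0.422 and 0.452, edgeR quasi-likelihood). Junb had -1.002, Fosb -0.70, Egr2 -0.47, Egr3 -0.51, Srf -0.13 and Myc 0.03, none called. Jund had -0.40 (adjusted p = 0.145, edgeR) and averaged 308 ± 19.4 CPM in NCD metformin and 406 ± 50.5 CPM in NCD control (SD, n = 4 each). Maff, a small MAF protein without an activation domain, had -2.15 (adjusted p = 0.0535, edgeR). Of the GADD45 genes, which encode partners of stress kinases, Gadd45b had -2.27 (adjusted p = 0.0733), Gadd45g -1.01 (adjusted p = 0.0888) and Gadd45a -0.31 (edgeR). For these, much of the NCD control mean came from NCD control 3: it held 14.03 CPM of Maff, 8.86 of Gadd45b and 38.4 of Gadd45g, where the highest of the other 3 NCD control libraries held 3.93, 1.44 and 16.7 CPM.

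**Figure D4:**
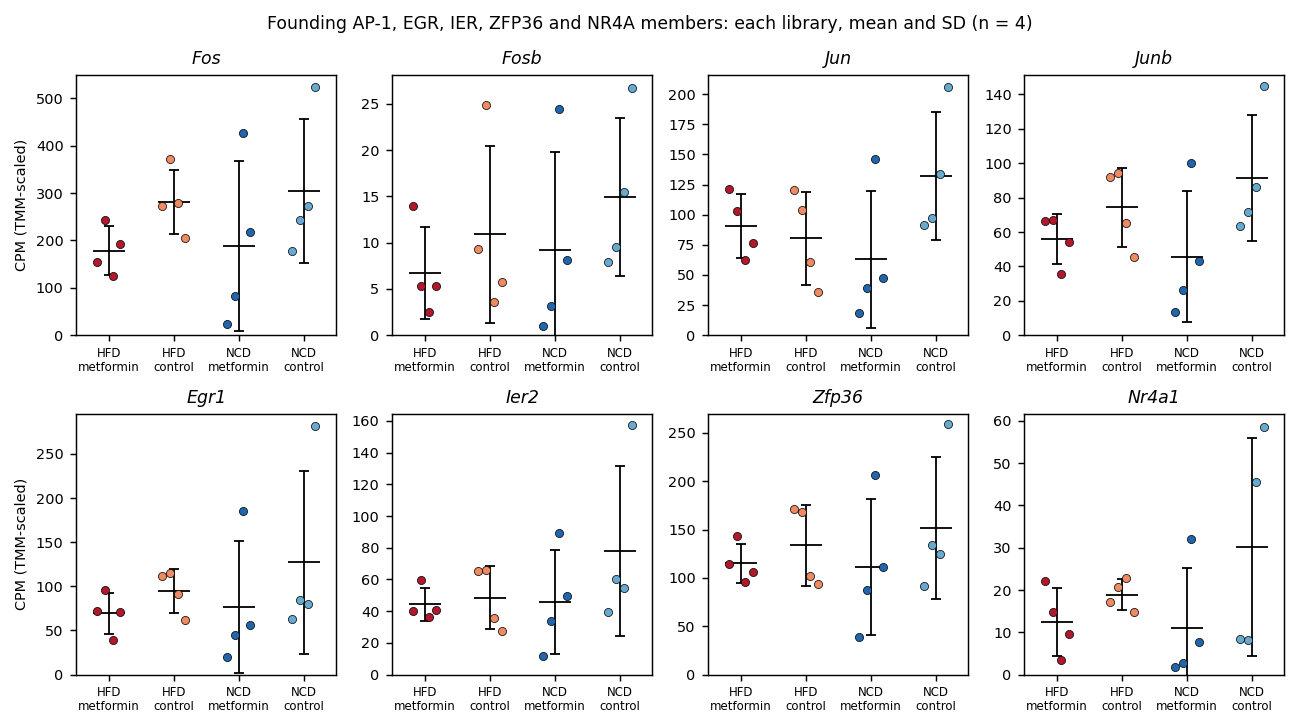
TMM-scaled CPM (vertical axes, from 0) of 8 founding or classical members in each library of the 4 groups (points), with group mean and SD (bars, n = 4). In NCD metformin the third library lies near or within the upper NCD control range, at 427 CPM for Fos and 186 CPM for Egr1, and the first library is the lowest of all 16 for Fos, at 23.03 CPM.

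The 8 calls rested on few libraries. Without NCD metformin 2 only Dusp1 was called. Without NCD control 3, 4 were called (Dusp1, Zfp36l2, Sik1 and Csrnp1), without NCD control 1, 5, and without NCD metformin 3, 11, of which 6 were among the 8. All genes called fell from 1255 to 180, 788, 384 and 511 in these fits, in the same order. Summed macrophage and monocyte markers, all 13 above 0, ranged over 106 to 140 CPM in NCD metformin and 147 to 203 CPM in NCD control, and fibroblast markers, all 9 above 0, over 218 to 345 CPM in NCD metformin and 340 to 353 CPM in NCD control; of the macrophage markers Cd14 and Ctss were called lower, and their part in these results was not tested. Of 15 tested skeletal muscle markers 13 were also called lower with metformin on NCD (median -6.96), their level being highest in NCD control 3; without that library Dusp1 had -1.89 (adjusted p = 0.0160, edgeR quasi-likelihood) and Sik1 -1.59, while Nr4a2 had -2.40 and was no longer called (edgeR). The numbers in the library titles run from 1 to 10 for 7 libraries and from 14 to 26 for 9, and the labels do not say what the gap is. In the range 1 to 10 all 8 had negative log2 fold changes, from -3.18 (Nr4a2) to -0.72 (Nfkbia), and in the range 14 to 26 likewise, from -2.98 (Nr4a2) to -0.36 (Nfkbia), with none called in either; the second range holds 1 NCD control library, assumed to vary like the other groups.

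With metformin on HFD, 0 of 31 members were called (edgeR's quasi-likelihood test; 0.168% of all genes were, 0.128% higher and 0.04% lower). At an unadjusted p under 0.05 there were 4 members (12.9%, against 12.8% of all genes); DESeq2 called 1, Ier5, and limma 0. Of the 31 log2 fold changes 18 were negative (58.1%, against 49.5% of all genes), with a median of -0.09 against 0.00 for all genes. That balance moved with single libraries: the median was -0.26, with 26 negative, without HFD metformin 1, -0.23 with 22 negative without HFD metformin 2, -0.22 with 20 negative without HFD control 4, and 0.00 with 15 negative without HFD control 2. Leaving out HFD control 1 gave -0.15, and HFD metformin 4 -0.05. In titles 1 to 10, with 1 library of each HFD group, it was 0.22 with 13 negative, and in titles 14 to 26 -0.35 with 24 negative. Dusp1 had 152.5, 92.7, 47.3 and 109 CPM in the HFD metformin libraries, against 155, 81.9, 189 and 91.7 CPM in the HFD control libraries, with overlap (-0.37 ± 0.36 SE). Sik1 had 247, 123, 35.4 and 108 CPM in the HFD metformin libraries, against 108, 69.2, 113 and 135 CPM in the HFD control libraries. HFD metformin 1 and HFD metformin 3 bounded the Sik1 values on both sides (0.27 ± 0.44 SE). The pattern of one high and one low HFD metformin library recurred for Zfp36l2, with 242, 163, 83.4 and 166 CPM in the HFD metformin libraries, against 200.2, 98.3, 130.3 and 140.0 CPM in the HFD control libraries (0.20). It recurred for Fosl2, with 78.5, 21.3, 6.67 and 36.3 CPM in the HFD metformin libraries, against 26.5, 7.64, 19.01 and 46.9 CPM in the HFD control libraries (0.53). Csrnp1 had 33.7, 13.2, 10.5 and 14.7 CPM in the HFD metformin libraries, against 16.8, 16.8, 16.2 and 16.1 CPM in the HFD control libraries (0.11). Nr4a2 had 9.69, 5.34, 0.940 and 2.62 CPM in the HFD metformin libraries, against 1.69, 2.36, 7.66 and 5.69 CPM in the HFD control libraries (0.08).

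The lowest p-value on HFD was that of Ier5. It had 10.3, 12.7, 12.1 and 14.7 CPM in the HFD metformin libraries, against 19.1, 20.4, 15.8 and 23.1 CPM in the HFD control libraries. It was the single member without overlap between these groups (3.23% of the 31, against 2.93% of all genes lower and 3.72% higher), at -0.64 ± 0.17 (SE; adjusted p = 0.140, edgeR quasi-likelihood). Nfkbia had 110.5, 70.5, 68.3 and 57.6 CPM in the HFD metformin libraries, against 47.9, 64.7, 48.0 and 48.3 CPM in the HFD control libraries. Here the HFD metformin values lay mostly above the HFD control values, at 0.55 ± 0.17 (SE; adjusted p = 0.189, edgeR), with 1 HFD control library inside their range. Ier3 had 19.2, 24.1, 11.4 and 17.2 CPM in the HFD metformin libraries, against 21.99, 26.1, 51.1 and 38.2 CPM in the HFD control libraries (-0.93 ± 0.40 SE, adjusted p = 0.341, edgeR). Gadd45g had 0.84 ± 0.38 (SE; adjusted p = 0.369), Egr3 -1.75 ± 0.89 and Zfp36l1 -0.38 ± 0.25 (edgeR). Jun, Egr1, Zfp36, Ier2 and Nr4a1 had 0.17, -0.45, -0.22, -0.14 and -0.63 on the log2 scale, none called.

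**Figure D5:**
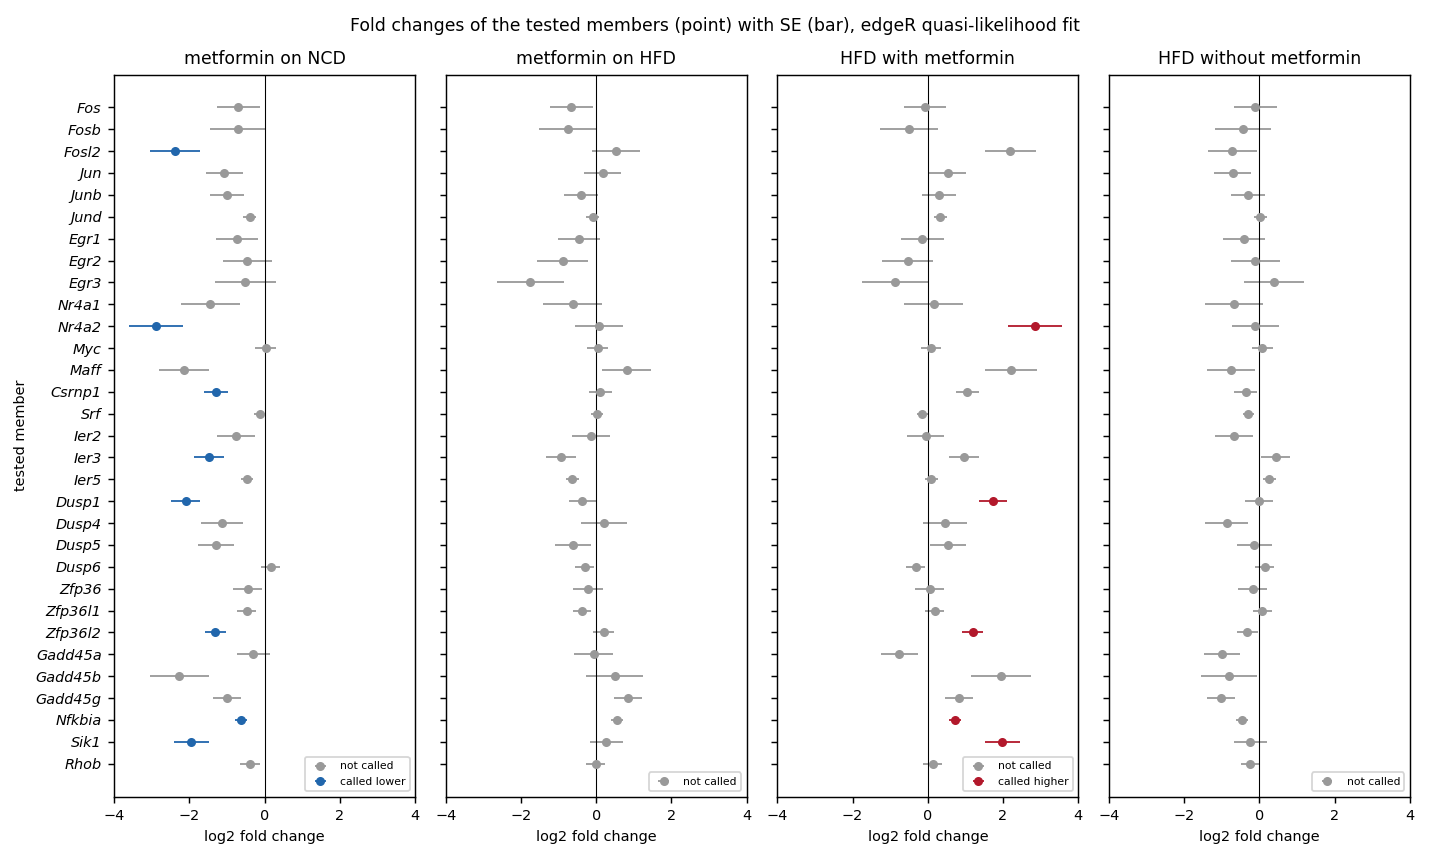
Log2 fold changes (points) with SE (bars) of the 31 tested members in 4 comparisons, each on the same axis; coloured points passed an adjusted p of 0.05 by edgeR's quasi-likelihood test. With metformin on NCD 8 members are blue (lower) and 29 of 31 lie left of 0, and with HFD under metformin 5 are red (higher); the comparisons share libraries pairwise.

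Averaged over both diets, Dusp1, Ier5 and Ier3 were lower with metformin, 3 of 31 members (9.68%, against 5.57% of all genes called lower and 5.82% called higher). Scaled by library size only, the 3 calls held, and of all genes called 357 were higher and 897 lower, against 728 and 696 with TMM scaling. Dusp1 averaged 65.4 CPM in the 8 metformin libraries and 129.9 CPM in the 8 control libraries and was lower in 7 of 8 metformin libraries than the control mean (-1.24 ± 0.26 SE, adjusted p = 0.00933, edgeR quasi-likelihood). Ier5 averaged 12.1 CPM with metformin and 17.9 CPM in controls and was lower in 8 of 8 (-0.55 ± 0.12 SE, adjusted p = 0.0102, edgeR). Ier3 averaged 13.6 CPM with metformin and 29.9 CPM in controls and was lower in 8 of 8 (-1.20 ± 0.28 SE, adjusted p = 0.0156, edgeR). Of 24 alternatives run, these 3 calls held in 22 and were lost within each range of title numbers, where the log2 fold changes stayed negative: -1.38 and -1.06 for Dusp1, -0.77 and -0.36 for Ier5, and -1.17 and -0.89 for Ier3, in titles 1 to 10 and 14 to 26. The count of members called lower was 7 without HFD metformin 1 and 9 without NCD metformin 3. Of the members not called, those of lowest p were Nr4a2 (-1.40, adjusted p = 0.0633), Zfp36l2 (-0.55, 0.0714), Dusp5 (-0.96, 0.0715), Csrnp1 (-0.59, 0.0841), Sik1 (-0.84, 0.0908) and Zfp36l1 (-0.43, 0.119; edgeR). Of the 31, 30 were negative (96.8%, against 51.2% of all genes), all but Myc (0.04).

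The difference between the 2 metformin effects, HFD minus NCD, was called for 0 of 31 members and 0 of 12506 genes by edgeR's quasi-likelihood test. At an unadjusted p under 0.05 there were 10 members (32.3%, against 9.94% of all genes); DESeq2 called 2 members, Nfkbia (adjusted p = 0.00429) and Zfp36l2 (adjusted p = 0.0478), and limma 0. Nfkbia had the lowest p in edgeR, with 1.18 ± 0.24 (SE; adjusted p = 0.334), from a log2 fold change of 0.55 on HFD and -0.63 on NCD. Zfp36l2 had 1.51 ± 0.39, Sik1 2.22 ± 0.63, Gadd45g 1.86 ± 0.53, Dusp1 1.73 ± 0.52 and Csrnp1 1.41 ± 0.44 (SE; adjusted p 0.334 to 0.369, edgeR). Of the 31 differences 5 were negative (16.1%, against 48.3% of all genes), with a median of 0.59 against 0.01 for all genes. The median was 0.28, with 10 negative, without NCD metformin 1 or without NCD control 4, and 1.19, with 2 negative, without NCD metformin 3. By edgeR, then, no member called on NCD was shown to respond differently on HFD.

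With HFD under metformin, HFD metformin against NCD metformin, 5 of 31 members were higher and 0 lower: Dusp1, Sik1, Nfkbia, Zfp36l2 and Nr4a2 (16.1%, against 1.86% of all genes called higher and 0.504% called lower). At an unadjusted p under 0.05 there were 11 members, all higher (35.5%, against 19.2% of all genes), and by DESeq2 and limma 0 members were lower. Of the 31 log2 fold changes 9 were negative (29%, against 50.5% of all genes), with a median of 0.29 against -0.00. The median was 0.02 without NCD metformin 1 and 0.77 without NCD metformin 3. In titles 1 to 10 it was 1.56, and in titles 14 to 26 -0.08. This comparison shares the NCD metformin libraries with that of metformin on NCD, so the 2 sets of values are not independent. The log2 fold changes were 1.72 ± 0.37 for Dusp1, 1.98 ± 0.46 for Sik1, 0.72 ± 0.17 for Nfkbia, 1.19 ± 0.28 for Zfp36l2 and 2.86 ± 0.72 for Nr4a2 (SE; adjusted p = 0.0360, 0.0388, 0.0388, 0.0393 and 0.0483, edgeR quasi-likelihood). Each was higher in 4 of 4 HFD metformin libraries than the NCD metformin mean. Nfkbia and Csrnp1 were the members without overlap (6.45% of 31, against 6.19% of all genes, higher), since HFD metformin 3 reached the NCD metformin range for Dusp1 (47.3 CPM, against 18.9 to 50.4 CPM), Sik1, Zfp36l2 and Nr4a2. Fosl2 had 2.19, Maff 2.21, Csrnp1 1.049 (adjusted p 0.0801 to 0.0905), Gadd45b 1.95, Ier3 0.97 and Gadd45g 0.84, none called (edgeR). The count of 5 fell to 0 without HFD metformin 1 or 2 or NCD metformin 1, 2 or 3, in a fit of these 2 groups alone and within each range of title numbers, to 1 without HFD metformin 4, NCD metformin 4 or HFD control 3 and to 2 without NCD control 2. All genes called fell from 295 to 5 without HFD metformin 1, 3 without HFD metformin 2, 4 without NCD metformin 2 and 5 without NCD metformin 3. Without NCD metformin 1 they were 177, and in a fit of these 2 groups alone 91. Scaled by library size only, 3 members were higher, the all-gene median log2 fold change was -0.18, and of all genes called 65 were higher and 576 lower, against 232 and 63 with TMM scaling.

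With HFD without metformin, HFD control against NCD control, 0 of 31 members were called by edgeR's quasi-likelihood test (0.064% of all genes were, 0.048% lower), nor by DESeq2 or limma, and 2 had an unadjusted p under 0.05 (6.45%, against 7.04% of all genes). Those 2 were Nfkbia, with -0.46 ± 0.17, and Gadd45g, with -1.02 ± 0.38 (SE; adjusted p = 0.586 and 0.587, edgeR). Nfkbia averaged 52.2 ± 8.34 CPM in HFD control and 71.8 ± 8.98 CPM in NCD control (SD, n = 4 each), and Gadd45g 10.2 ± 2.45 CPM in HFD control and 20.5 ± 12.3 CPM in NCD control, and both overlapped. No member separated these groups, against 2.25% of all genes lower and 1.87% higher. Dusp1 averaged 129 ± 51.4 CPM in HFD control and 130.5 ± 39.9 CPM in NCD control (SD, n = 4 each; -0.01 ± 0.36 SE). Gadd45a had -0.995, Srf -0.29, Ier5 0.26 and Dusp4 -0.87, none called. The median over members was -0.29, 24 of 31 being negative, against 0.00 and 49.5% for all genes; this rested on single NCD control libraries, since without NCD control 4 it was -0.03, with 16 negative, and without NCD control 3 it was -0.16, with 18 negative.

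Of the genes around the members, in 11 lists, none was higher with metformin on NCD; the counts of lower genes below stand beside 6.03% of all genes called lower. Of 34 tested other early and delayed response genes 3 were lower (median -0.55): Thbs1, which encodes thrombospondin (-2.16), Klf6, a Kruppel-like factor (-1.30), and Btg2, an antiproliferative gene (-1.28). Of 27 genes from receptors through RAS to ERK 3 were lower (median -0.08): the exchange factor Sos2 (-0.59), the receptor Erbb3 (-0.62) and the ERK-activated kinase Rps6ka3 (-0.72). None of 10 inhibitors of that route and none of 14 SRF and CREB partners passed. In the JNK and p38 pathways 2 of 21 were lower, the kinases Map3k1 (-0.93) and Map2k4 (-0.44), and of 13 other dual specificity phosphatases Dusp16 (-1.15) and Dusp8 (-1.41), both JNK phosphatases. Among other AP-1 and bZIP factors, Cebpb (-1.10) and Atf2 (-0.55) were lower. Of 18 genes of NF-kappa B and its inhibitors, Cyld, a deubiquitinase that restrains the pathway (-0.91), and Relb, a subunit (-0.99), were lower. Of 9 salt-inducible and CREB kinases and phosphodiesterases, Pde4b, which degrades cyclic AMP (-2.05), and Prkacb, a catalytic subunit of protein kinase A (-0.72), were lower. Of 17 decay partners of the ZFP36 proteins, the deadenylase subunits Cnot6l (-0.67) and Cnot1 (-0.44) and the decapping factor Dcp1a (-0.74) were lower. Each of these genes had an adjusted p between 0.00363 and 0.0469 (edgeR quasi-likelihood).

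Of 18 p53 targets, a list that shares Btg2 and Plk2 with the early response list, 14 were lower with metformin on NCD (median -1.04; 6.03% of all genes were called lower), among them Ccng1 (-1.15), Eda2r (-2.40), the cell cycle inhibitor Cdkn1a (-2.80) and Mdm2, which degrades p53 (-0.78). With metformin on HFD, 1 gene of the 11 lists passed, Ccng1 (-0.69, adjusted p = 0.0202, edgeR quasi-likelihood). With HFD under metformin 5 of 18 p53 targets were higher (1.86% of all genes were), Eda2r (2.28), Trp53inp1 (2.96), Cdkn1a (1.77) and Ccng1 (0.51) among them. In that comparison Erbb3 (0.92), Map3k1 (0.71), Dusp16 (1.31), Atf7 (0.64), Cyld (0.65), Birc3 (0.63) and Cnot6l (0.69) were also higher, and no listed gene was lower. With HFD without metformin no listed gene passed.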

How the data were processed

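Whole inguinal mammary gland RNA was sequenced in 16 libraries. Per the labels' protocols, the kits were Qiagen RNeasy Mini for RNA and NEBNext Ultra II Directional for libraries. Each deposited table lists, for every transcript, the authors' estimated count and its TPM, a length-scaled level, per the file headers. The submitters' processing notes name GRCm38.p6, Salmon 1.3.0 and DESeq2 1.28.1 without roles; which strand option was used is not given in the sources used here. For 56929 of 56929 transcripts with the same version and a coding sequence in GENCODE M21, listed and coding lengths differed by at most 5 bases, so the reference held no untranslated regions.

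Summing 57452 transcripts gave 22196 genes, whose estimated counts were rounded to whole numbers, and 752 unmatched transcripts (0.165 to 0.218% of counts) were left out. edgeR 4.0.16 (R 4.3.3) was fitted by quasi-likelihood with 4 group means over 16 libraries after filterByExpr and TMM scaling, on 12506 genes (residual degrees of freedom 12, common dispersion as a coefficient of variation 0.233). P-values were two-sided, adjusted by Benjamini-Hochberg over all genes, and called under 0.05. Levels in CPM are TMM-scaled. Alternatives were other scalings, no filter, DESeq2 1.42.0, limma 3.58.1 on log2(TPM + 1), a term for title numbers, the compared groups alone, each library left out, and, chosen after seeing the data, fits within each range of title numbers. No pair of libraries looked like a repeated deposit over 120 pairs. The fit was tested on simulated data with a single dispersion for all genes, so that test does not cover genes as variable as most members. Counting floors cover counting error only.

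Members and lists were chosen with earlier results of these data known. The rule for named genes takes all members, every called member and at most 6 others of lowest p per comparison, and at most 4 called genes per list. Replicates were numbered in accession order. Not every called gene of the pathway lists is reported here.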

Additional observations from a re-analysis of the deposited data

Results flagged for a closer look

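In groups of 4, 9 of 124 sets of member values had a library far from the other 3 (by Dixon's test of the gap to the nearest library over the group's range). All 9 lay above the other 3. Chance gives about 1 in 20 for independent, normally distributed values. These sets are CPM of members measured in the same libraries, so the 9 cannot be read against that rate. In NCD control 3, Maff had 14.03 CPM (others 3.12 to 3.93), Gadd45b 8.86 CPM (1.17 to 1.44) and Gadd45a 1.02 CPM (0.418 to 0.491). In NCD control 4, Egr1 had 281 CPM (others 63.0 to 84.4) and Rhob 39.8 CPM (21.5 to 22.8). Egr2 had 5.80 CPM in NCD metformin 3 (others 0.610 to 0.821) and 4.37 CPM in HFD control 3 (1.67 to 2.01). Maff had 17.5 CPM in HFD metformin 1 (others 1.75 to 4.44), and Nfkbia 64.7 CPM in HFD control 2 (47.9 to 48.3).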

How the results depend on the processing

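No paired analysis was possible because no label pairs libraries across groups and replicate numbers follow accession order. Of the 52 named fold changes, 2 changed sign, both not called: Egr3 on HFD was 0.22 in titles 1 to 10, against -1.75, and Dusp4 with HFD without metformin was 0.27 in titles 14 to 26, against -0.87. With metformin on NCD, 8 members were lower with DESeq2 size factors, library size only or no filter; with a term for title numbers 8 were lower, 7 of them shared, and with only the groups compared 8, 7 shared. DESeq2 called 10 and limma on log2(TPM + 1) 5, and leaving out 1 library gave 1 to 11. For all genes, DESeq2 called 1790, 1028 of them lower, limma called 450, and leaving out 1 library gave 180 to 1461, against 1255. With metformin on HFD, DESeq2 called 1 member lower, and leaving out 1 library 0 to 0; all genes called were 21, with 7 by library size only, 1 in the groups compared, 170 by DESeq2 and 5 by limma. Averaged over both diets, DESeq2 called 6 members lower, and leaving out 1 library gave 3 to 9. For all genes in that comparison, DESeq2 called 975 higher and 964 lower. Leaving out 1 library gave 711 to 1505 genes called, against 1424. DESeq2 called 2 members higher in the interaction and 22 genes in all, and leaving out 1 library gave 0 to 1 genes. With HFD without metformin, all genes called were 8, with 39 by library size only, 5 with the title term, 65 by DESeq2, 53 by limma and 2 to 13 without 1 library. With HFD under metformin, 5 members were higher in the reported fit. Library size only gave 3, the groups compared 0, DESeq2 8, limma 1 and leaving out 1 library 0 to 6. All genes called were 295, 232 of them higher and 63 lower. They were 641 by library size only, 91 in the groups compared, 769 by DESeq2 and 312 by limma. Of these, 65 were higher and 576 lower by library size only, 577 and 192 by DESeq2, and 16 and 296 by limma. The title term itself was called for 0 members. Of 12506 genes it was called higher in titles 14 to 26 for 5 and lower for 5. Among the members its log2 estimates ran from -0.91 ± 0.57 (Gadd45b) to 1.23 ± 0.67 (Egr3; SE), with Fos at 1.06 ± 0.37. The cause of the differences between fits was not tested. The shallowest library, at 8649316 counts, and the low counts of Nr4a2, Egr3 and Dusp4 limit what could be detected.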
